A study of Mus musculus with 15 samples.

Results

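Early and late culture of mouse dental mesenchymal cells (mDMCs) were compared. The comparison set the pooled 36 h and 48 h libraries (late culture, 6 libraries) against the pooled 12 h and 24 h libraries (early culture, 5 libraries) of RNA sequencing, which together make 11 of the 15 libraries of the series. Libraries were assigned to the periods from the sample labels.

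The cells came from the mandibular first molar germs of ICR mouse embryos at embryonic day 14.5, were freed of epithelium with dispase, made into single cells with trypsin, and plated in DMEM with fetal bovine serum (FBS). Early culture held 2 libraries of D0.5 (12 h) and 3 of D1 (24 h), and late culture held 3 of D1.5 (36 h) and 3 of D2 (48 h). All 11 libraries shared the strain, the dissection and the serum medium, so what serum or dissociation did to both periods cannot be seen here. The other 4 libraries, 3 of freshly isolated mDMCs (D0) and 1 of dental mesenchymal tissue, were not in the fit and are given only as reference levels. The labels number the replicates without saying whether they were separate cultures or litters, so the p-values measure only the spread between these libraries, and its replicate part may be technical. The fit has 1 mean per period, so that spread also holds the difference between the times pooled in a period.

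Dental mesenchyme of this stage is the neural crest-derived tissue of the tooth germ that can instruct an epithelium to form a tooth, and it later gives rise to the dental pulp and to odontoblasts, the cells that make dentin. The study followed how cultured mDMCs lose that ability, and the comparison asks which genes separate the first day of culture from the second. Among the gene programmes known to vary in cultured cells are sterol synthesis, which is driven by SREBP factors when membrane cholesterol is low, lysosomal genes, which are driven by TFEB and related factors, glycolytic genes driven by HIF1, and growth arrest genes driven by p53.

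The deposited values are called scores here. They are whole numbers on a normalized scale shared by all libraries, and they are not read counts. In each library their median was 721 and the top score 127101. Depth is therefore unknown, and only the spread between libraries gives the precision. Differences are on the scale of log2(score + 1), late minus early, and are given ± the standard error (SE) of the 6 against 5 libraries. They come from limma over 11972 transcripts, with Benjamini-Hochberg adjusted p-values over all of them, and a gene is said to have risen or fallen where the adjusted p was below 0.05. A transcript was tested if its score reached 21.4 in 2 or more of the 11 libraries. For 84 transcripts no library of a period reached it, so they were tested only through the period where they were high. Gene positions are those of the transcript in mm10 (GRCm38). The lists of genes used below were written with earlier results of these data known, so their counts are descriptions and were not tested.

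Principal component 1 of the 11 libraries held 53.4% of the variance and ordered them by period. Its values were -58.6 and -50.8 at 12 h, between -25.7 and -14.0 at 24 h, between 24.7 and 26.2 at 36 h, and between 23.4 and 39.0 at 48 h. The periods did not overlap on it, and the 36 h and 48 h libraries overlapped each other. Principal component 2 held 14.9% and separated libraries within a time. Replicate 1 of 24 h lay at 12.3 and the other 24 h libraries at -19.5 and -27.2, while 48 h replicate 1 lay at 6.35 and the other 48 h libraries at -15.8 and -25.4. Replicates 1 and 2 of 36 h were the most alike of all pairs (r = 0.991 across transcripts, with 4.86% identical scores, against at most 2.64% in the other pairs of a time). Without 36 h replicate 1, 2188 genes rose and 2172 fell, and without replicate 2, 2178 rose and 2135 fell.

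**Figure D1:**
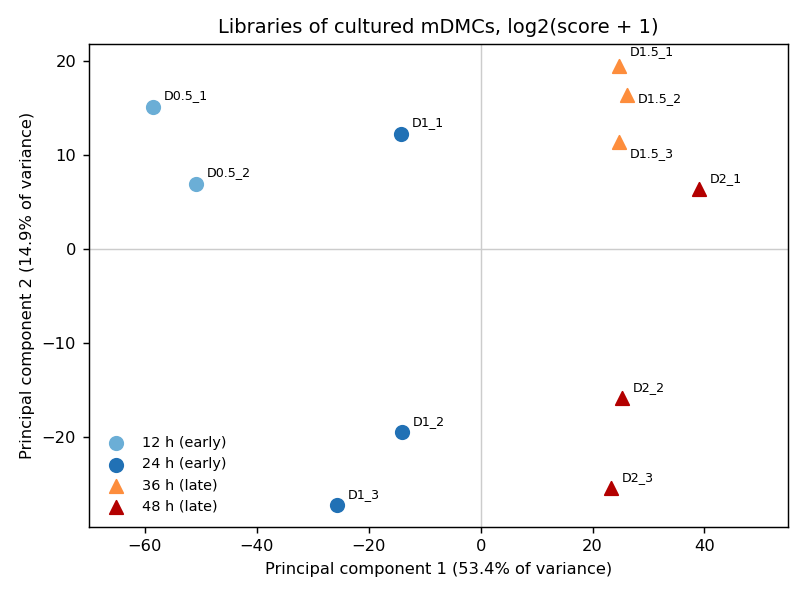
Principal components 1 and 2 of log2(score + 1) in the 11 libraries of cultured mDMCs, each point a library, circles for early culture (12 h and 24 h) and triangles for late culture (36 h and 48 h). Early libraries lie between -58.6 and -14.0 on component 1 and late libraries between 23.4 and 39.0.

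The promoters of 4 of the gene lists that changed are shown first. In these lists short letter runs were found near the start sites more often than over all windows. Some of these runs were still in a minority of the windows of their list. Promoter windows from 250 bases before to 50 after the start were taken from RefSeq (GRCm38), and 8471 of the 11972 tested genes had one. Each motif was searched on both strands, and the stretches below lie before the RefSeq start site with the motif in capitals. A RefSeq start was used if it lay within 1000 bases of the start of the tested transcript. For Idi1 the stretch shown lies inside the tested transcript. TCACGTGA is the palindrome known for TFEB and related factors, and ACGTG, which it contains, is the core known for HIF1.

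The lysosomal genes shown are 2 of the 3 with TCACGTGA. Gla encodes alpha-galactosidase A (chrX:134601186-134601255, minus strand) and Mcoln1 the lysosomal calcium channel TRPML1 (chr8:3500433-3500518, plus strand).
Gla: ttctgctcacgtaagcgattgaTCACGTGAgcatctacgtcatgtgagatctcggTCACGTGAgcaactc
Mcoln1: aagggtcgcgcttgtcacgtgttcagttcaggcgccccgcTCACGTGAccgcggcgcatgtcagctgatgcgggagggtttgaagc
TCACGTGA was found in 10.7% of the 28 lysosomal windows and 2.12% of all windows, and ACGTG in 46.4% against 26.3%.

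The glycolysis and hypoxia-inducible genes shown are the 2 of that list with the largest rise, with ACGTG in capitals. Slc16a3 encodes the lactate exporter MCT4 (chr11:120949000-120949066, plus strand) and Ankrd37 an ankyrin repeat protein (chr8:46000047-46000100, minus strand).
Slc16a3: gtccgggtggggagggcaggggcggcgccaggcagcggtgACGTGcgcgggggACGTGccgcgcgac
Ankrd37: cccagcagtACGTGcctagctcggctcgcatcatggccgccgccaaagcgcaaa
ACGTG was found in 63.6% of the 22 windows of this list.

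The sterol genes shown are the 2 with the largest fall, with ATTGG, the reverse complement of CCAAT, in capitals. CCAAT is the motif of the factor NF-Y, which is known to act beside SREBP. Idi1 encodes isopentenyl-diphosphate isomerase (chr13:8885521-8885605, plus strand) and Hmgcs1 the HMG-CoA synthase of the cytosol (chr13:119690101-119690158, plus strand).
Idi1: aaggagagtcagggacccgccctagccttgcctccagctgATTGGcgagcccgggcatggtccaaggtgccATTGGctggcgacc
Hmgcs1: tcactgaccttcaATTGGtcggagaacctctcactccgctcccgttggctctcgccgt
CCAAT was found in 81.8% of the 22 windows of the sterol and fatty acid list, 58.3% of the 36 DNA replication windows, 78.6% of the 28 mitosis windows and 39.3% of all windows. In the other lists whose windows were searched it was found in 38.5% (bone and dentin) to 61.5% (amino acid stress).

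The replication genes shown carry a letter run known for E2F factors, TTTGGCGC or TTTCCCGC, printed as its reverse complement. Cdc6 encodes a loader of the replicative helicase (chr11:98907973-98908060, plus strand) and Mcm5 a subunit of that helicase (chr8:75109320-75109407, plus strand).
Cdc6: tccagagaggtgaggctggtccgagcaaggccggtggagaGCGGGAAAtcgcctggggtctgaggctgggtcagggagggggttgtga
Mcm5: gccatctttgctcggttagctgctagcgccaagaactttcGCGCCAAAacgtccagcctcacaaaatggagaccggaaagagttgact
TTTGGCGC was found in 16.7% of the replication windows and 1.06% of all windows, and TTTCCCGC in 16.7% against 2.30%.

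Across the genes that rose or fell, without regard to lists, CCAAT was in 39.8% of the windows of genes that rose and 39.7% of those that fell, ACGTG in 27.9% and 26.5%, and TCACGTGA in 3.45% and 1.01%. TTTGGCGC was in 0.566% and 1.55% and TTTCCCGC in 1.41% and 3.81%. These shares were not tested. TGACTCA (AP-1) was in 4.13% and 3.03%, CATTCC (TEAD) in 12.5% and 10.6%, TTTGAA in 12.1% and 9.10%, and TGATGNAAT (CHOP and ATF4) in 0.452% and 0.654%. A match is a run of letters and not a bound site, and TCACGTGA, TTTGGCGC and TTTCCCGC were added after the data were seen.

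Late culture differed from early culture in 4906 of the 11972 transcripts (41.0%), of which 2417 (20.2%) rose and 2489 (20.8%) fell. Over 2-fold, 414 rose (3.46%) and 321 fell (2.68%), together 6.14%. At an unadjusted p below 0.05 and over 2-fold, 3.51% were higher and 2.82% lower. All 6 late libraries lay above all 5 early libraries in 1527 transcripts (12.8%) and below them in 1443 (12.1%). The median of all log2 differences was -0.02. The step between 24 h and 36 h was the largest of the 3 steps in 1626 (67.3%) of the genes that rose and 1672 (67.2%) of those that fell, against 43.3% of all transcripts tested. The pooled comparison spans this step, so these shares were partly set by how the genes were chosen. The step between 12 h and 24 h was the largest in 663 and 661. From 12 h to 24 h 652 genes rose (5.45%) and 479 fell. Between 24 h and 36 h 1299 rose (10.9%) and 1260 fell (10.5%). For 48 h against 36 h limma called 0 rises and 2 falls (0.0167%), with 1770 transcripts at an unadjusted p below 0.05. Since early culture held 2 libraries of 12 h and 3 of 24 h that themselves differed, the choice of times moved the counts: without 12 h, 244 genes rose and 163 fell over 2-fold, and without 24 h, 721 and 660 did.

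**Figure D2:**
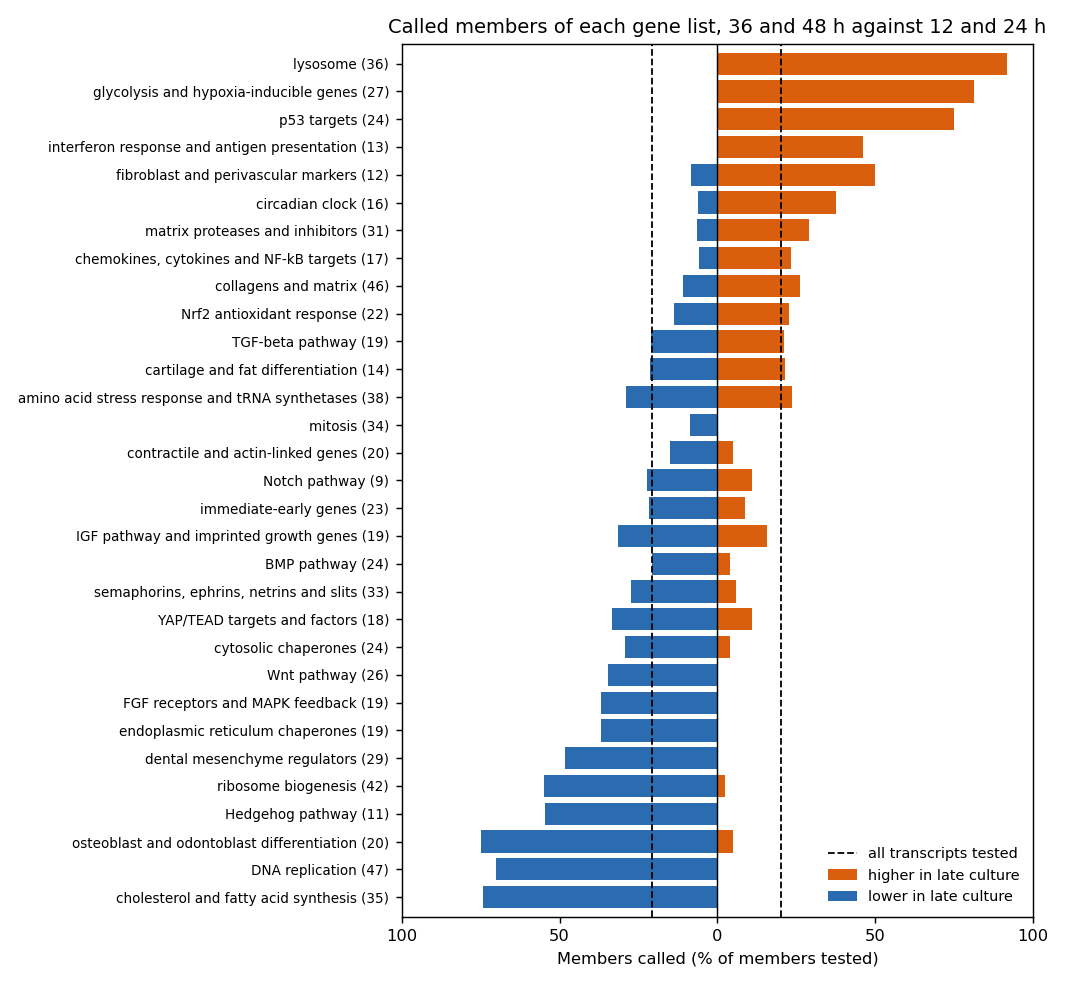
Percent of the tested members of each gene list (number tested in brackets) that rose (right, orange) or fell (left, blue) in late culture at an adjusted p below 0.05; dashed lines mark the same over all transcripts tested, 20.2% higher and 20.8% lower. Lysosomal, glycolytic and p53 target genes reach farthest to the right, and sterol, replication and bone and dentin differentiation genes farthest to the left. Lists of cell type markers are not shown.

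Lysosomal genes, which encode the hydrolases, membrane proteins and proton pump of the degradative compartment, rose in late culture. Of 37 listed genes 36 were tested, 33 rose and 0 fell (background, the share over all transcripts tested, 20.2% and 20.8%). The median log2 difference was 0.87 against -0.02 for all transcripts, and in 32 the libraries of the periods did not overlap (background 12.8%). Tpp1, the tripeptidyl peptidase lost in a neuronal lipofuscinosis (chr7:105744811-105752235), had scores of 222 and 132 at 12 h, 321, 292 and 243 at 24 h and between 535 and 948 in late culture (median 694). The late level was 2.95 times the early level on the log2(score + 1) scale (1.56 ± 0.21, adjusted p = 0.00033). Each late library was above each early one, with 24 h in the upper part of the early range.

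Gla, whose promoter is shown above (gene at chrX:134588149-134601125), had scores of 170 and 171 at 12 h, 219, 184 and 198 at 24 h and between 389 and 712 in late culture (median 472) (1.38 ± 0.15, adjusted p = 0.00013). The early libraries lay close together and the lowest late library was well above them. Sgsh, the sulfamidase of heparan sulfate degradation (chr11:119343425-119355502), rose from 57.8 ± 15.1 (SD, n = 5) to 152 ± 34.1 (SD, n = 6) (1.39 ± 0.21, adjusted p = 0.00050), without overlap. The other members that rose ranged from Gusb at 0.26 to Manba, Galns and Asah1 at 1.21 to 1.25. They included the membrane proteins Lamp1 (0.98) and Lamp2 (0.87), the proteases Ctsl (0.96), Ctsb (0.68) and Ctsa (0.95), and the proton pump subunits Atp6v0d1 (0.82), Atp6ap1 (0.57) and Atp6v1h (0.33). The 3 members that did not pass the test were Ids (-0.12), Ctsz (0.14) and Glb1 (0.15). These further members were named after their values were seen. Between 24 h and 36 h the list median differed by 0.71 and 30 of the members rose. The differences of the median were 0.15 in the step before and 0.08 in the step after. Between 31 and 33 members rose without any of the 4 times, and 33 without each of the 11 libraries.

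Sterol and fatty acid synthesis fell in late culture. All 35 listed genes were tested, 26 fell and 0 rose (background 20.8% and 20.2%), 12 of them over 2-fold (background 2.68%), with a median of -0.91, and 21 did not overlap (background 12.1%). Idi1 (gene at chr13:8885501-8892451) had scores of 6497 and 9215 at 12 h, 6633, 5908 and 5785 at 24 h and between 1035 and 2850 in late culture (median 2130), and fell by 1.86 on the log2 scale (± 0.23, adjusted p = 0.00024). Hmgcs1, which forms the HMG-CoA that the pathway starts from, had scores of 17385 and 20902 at 12 h, 10718, 8295 and 9415 at 24 h and between 2385 and 5385 in late culture (median 4224) (-1.698 ± 0.28, adjusted p = 0.00082). The highest scores of both genes were at 12 h and the lowest at 48 h. Without 24 h the difference of Hmgcs1 was -2.31.

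Fdps, the farnesyl diphosphate synthase that follows Idi1 in the pathway (chr3:89093588-89101959), fell from 8072 ± 1721 (SD, n = 5) to 3110 ± 853 (SD, n = 6) (-1.41 ± 0.22, adjusted p = 0.00057). Elovl6, an elongase of saturated fatty acids (chr3:129532386-129638495), had scores of 3151 and 2884 at 12 h, 2740, 2421 and 2187 at 24 h and between 808 and 1408 in late culture (median 1137) (-1.27 ± 0.13, adjusted p = 0.00012), so that the highest late library lay below the lowest early one. In freshly isolated mDMCs Idi1 had 1819 to 2467 and Fdps 3675 to 4193, below early culture and overlapping late culture. Hmgcs1 had 5983 to 12971 and Elovl6 3713 to 4102 there, both above late culture. Farther along the pathway to cholesterol, Fdft1 differed by -1.13, Sqle by -0.95 and Dhcr7 by -1.11, and the SREBP regulator Insig1 differed by -1.16. In fatty acid synthesis Acaca differed by -1.203, Fasn by -0.81 and Acly by -0.52. Srebf2, the sterol-sensing factor itself, fell by 0.56 on the log2 scale, and Srebf1 (0.09) and Ebp (-0.02) did not pass the test. These members were named after their values were seen. The median step of this list was -0.34, -0.46 and -0.58 in order of time, and 4, 18 and 0 members fell in these steps, so no member passed between 36 h and 48 h. With 12 h, 24 h, 36 h or 48 h left out, 19, 27, 31 and 21 members fell, and without each library 23 to 30.

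**Figure D3:**
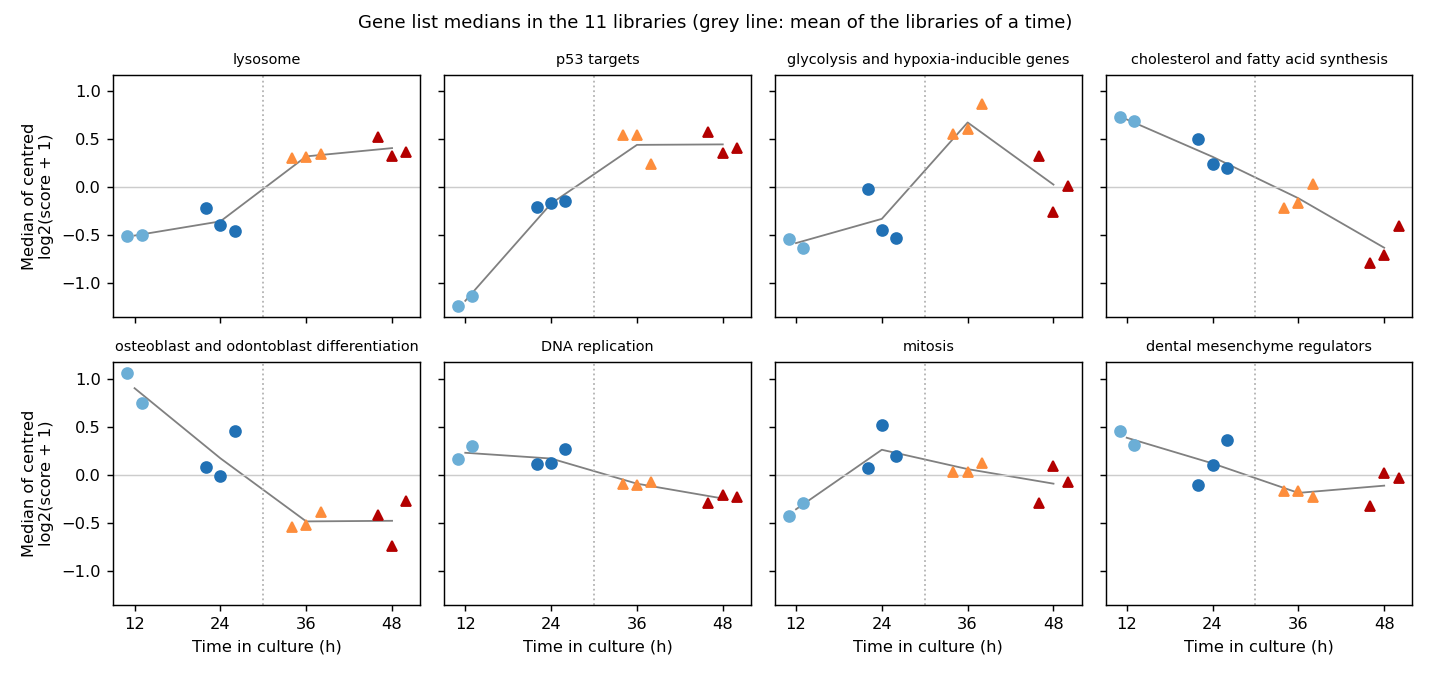
Median over the members of 8 gene lists of log2(score + 1), each gene centred on its mean over the 11 libraries, against time in culture; points are libraries (circles early, triangles late, spread sideways), the grey line joins the means of the times and the dotted line divides the periods. The lysosomal list lies between -0.51 and -0.22 in early and between 0.30 and 0.52 in late culture, the median of the sterol and fatty acid list is lower at each later time, with 0 members past the test between 36 h and 48 h, and the mitosis list rises from 12 h to 24 h without separating the periods.

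Target genes of p53 rose together. All 24 listed genes were tested, 18 rose and 0 fell (background 20.2% and 20.8%), 11 of them over 2-fold (background 3.46%), with a median of 0.98, and 17 did not overlap (background 12.8%). Pmaip1, which encodes the death-promoting BCL2 family member NOXA (chr18:66458533-66465560), had scores of 64 and 81 at 12 h, 293, 314 and 397 at 24 h and between 728 and 1815 in late culture (median 1290) (2.83 ± 0.46, adjusted p = 0.00080). Mdm2, the ubiquitin ligase that limits p53 (chr10:117688875-117710758), had scores of 1306 and 1403 at 12 h, 4240, 4209 and 3947 at 24 h and between 9163 and 15054 in late culture (median 10986) (2.12 ± 0.33, adjusted p = 0.00059). In both genes the 24 h libraries stood clearly above the 12 h libraries and below the late ones. Trp53inp1, a cofactor of p53 in the stress response, rose from 1488 ± 731 (SD, n = 5) to 7015 ± 2029 (SD, n = 6) (2.36 ± 0.32, adjusted p = 0.00033). Eda2r, a death receptor of the TNF receptor family on the X chromosome, rose from 1164 ± 535 (SD, n = 5) to 4600 ± 927 (SD, n = 6) (2.102 ± 0.30, adjusted p = 0.00041). Cdkn1a, the cell cycle inhibitor p21, differed by 1.64, Ccng1 by 2.10, the death receptor Fas by 1.498 and Bax by 0.996, all of which passed the test and were named after their values were seen. Trp53 itself differed by -0.06 and did not pass. The list median differed by 0.92 between 12 h and 24 h, when 16 members rose. In the next step it differed by 0.57, when 13 rose, and in the last by 0.02. Without 12 h the difference of Pmaip1 was 1.95 and of Mdm2 1.48, and without 24 h those of Pmaip1, Mdm2, Trp53inp1 and Eda2r were 4.14, 3.08, 3.23 and 2.94. With array weights Pmaip1 differed by 2.24. Without 48 h, 10 members rose.

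Glycolytic and hypoxia-inducible genes were higher in late culture. Of 30 listed genes 27 were tested, 22 rose and 0 fell (background 20.2% and 20.8%), 9 over 2-fold (background 3.46%), with a median of 0.80, and 8 did not overlap (background 12.8%). Slc16a3 had scores of 241 and 278 at 12 h, 1743, 346 and 272 at 24 h and between 582 and 5665 in late culture (median 4614) (2.73 ± 0.68, adjusted p = 0.0077). The scores were between 4856 and 5665 at 36 h, and at 48 h replicate 1 had 4373 while replicates 2 and 3 had 582 and 1107. Replicate 1 of 24 h, at 1743, was above those 2 late libraries, so the periods overlapped.

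Ankrd37 (2.71 ± 0.68, adjusted p = 0.0076), the mitophagy receptor Bnip3 (chr7:138890836-138909506, 2.38 ± 0.55, adjusted p = 0.0054) and Pdk1, the kinase that closes pyruvate dehydrogenase (chr2:71873224-71903858, 2.31 ± 0.61, adjusted p = 0.0099) also rose. Bnip3 had 367 and 361 at 12 h, 2027, 515 and 465 at 24 h and between 854 and 6847 in late culture (median 3954). The glycolytic enzymes rose by less, as the log2 differences of Tpi1 (1.43), Pgk1 (1.48), Pfkl (1.56), Ldha (1.28), Pkm (1.05), Eno1 (0.86) and Gapdh (0.53) showed, while Hk2 (0.17) and Pfkm (0.22) did not pass the test. These enzymes were named after their values were seen. The list median differed by 0.95 between 24 h and 36 h, when 25 members rose. Its difference between 36 h and 48 h was -0.59, when 0 members passed the test in either direction. Without 36 h only 8 members rose, and the differences of Slc16a3, Ankrd37, Bnip3 and Pdk1 were 1.797, 2.07, 1.62 and 1.32 with adjusted p = 0.11, 0.11, 0.078 and 0.13. Without 12 h, 14 members rose, and Slc16a3, Ankrd37 and Pdk1 differed by 2.30, 1.77 and 1.95 with adjusted p = 0.062, 0.059 and 0.074. Without 24 h the differences of Slc16a3, Ankrd37 and Bnip3 were 3.37, 4.14 and 3.05, with a pseudocount of 16 that of Ankrd37 was 1.84, and without 48 h those of Slc16a3, Ankrd37, Bnip3 and Pdk1 were 3.66, 3.36, 3.15 and 3.31.

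**Figure D4:**
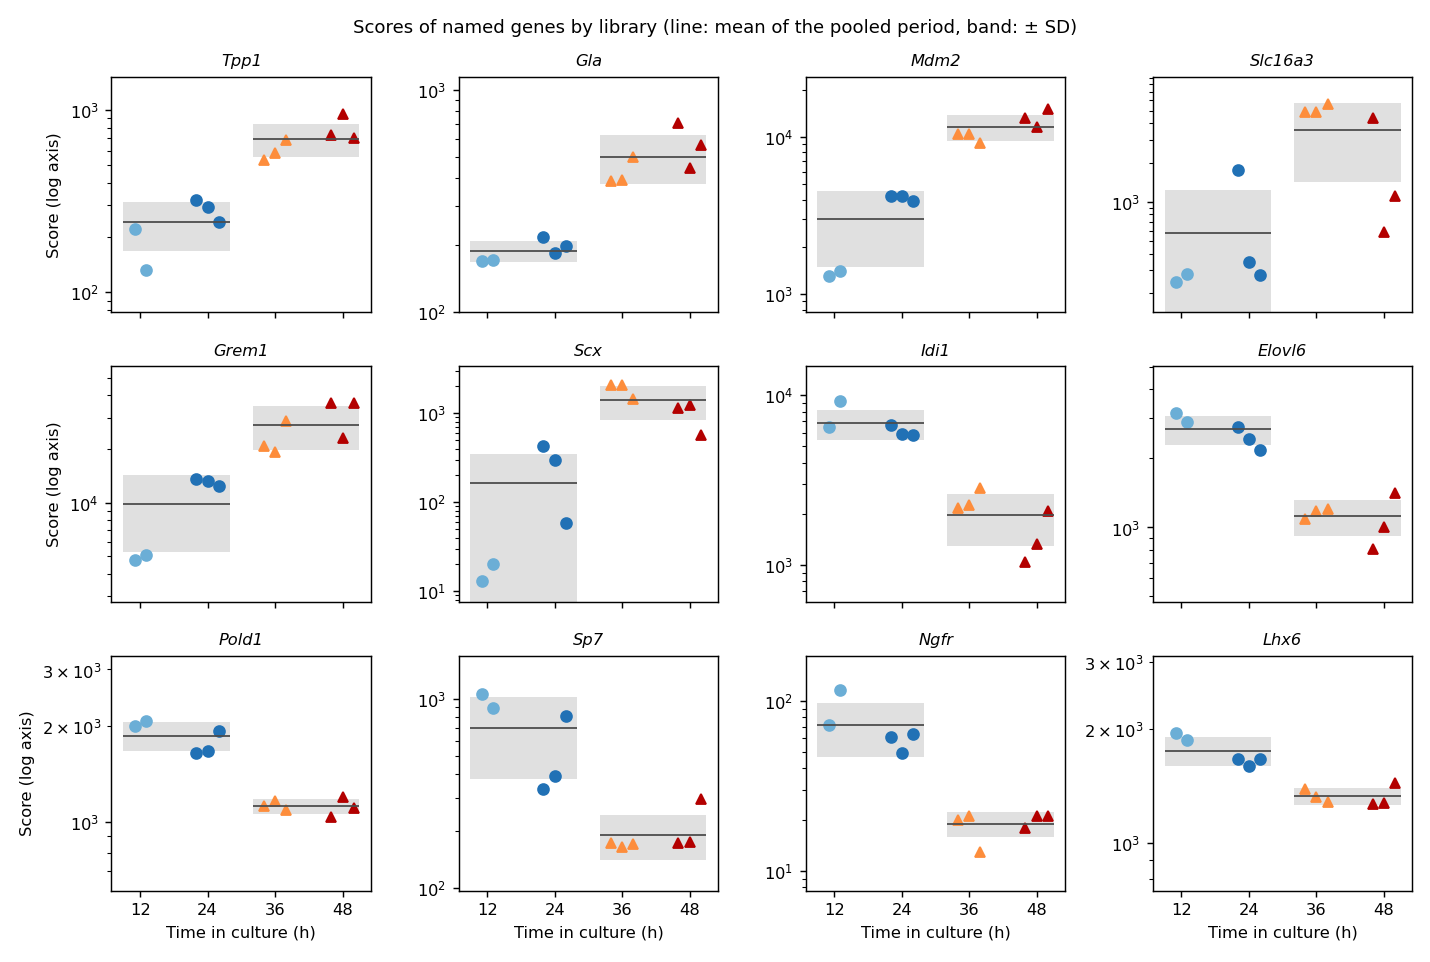
Scores of 12 named genes in the 11 libraries on a logarithmic axis against time in culture; circles are early and triangles late libraries (spread sideways within a time), horizontal lines are the means of the pooled periods and grey bands ± SD. Slc16a3 overlaps between the periods, with 1743 at 24 h replicate 1 and 582 at 48 h replicate 2, while the other 11 genes do not overlap.

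Most genes of DNA replication were lower in late culture, and most of those of mitosis did not pass the test. Of 48 listed replication genes 47 were tested, 33 fell and 0 rose (background 20.8% and 20.2%), 0 over 2-fold, with a median of -0.38 and 25 without overlap (background 12.1%). Pold1, the catalytic subunit of DNA polymerase delta (chr7:44532746-44548847), had scores of 2001 and 2072 at 12 h, 1644, 1667 and 1927 at 24 h and between 1033 and 1199 in late culture (median 1113) (-0.73 ± 0.07, adjusted p = 0.00011). Ccne1, the cyclin E1 that drives entry into S phase, fell from 1185 ± 106 (SD, n = 5) to 681 ± 137 (SD, n = 6) (-0.82 ± 0.15, adjusted p = 0.0013). Uhrf1, which carries DNA methylation through replication, fell from 5076 ± 773 (SD, n = 5) to 3060 ± 249 (SD, n = 6) (-0.72 ± 0.10, adjusted p = 0.00034), and Lig1, the ligase of Okazaki fragments, from 1516 ± 301 (SD, n = 5) to 914 ± 148 (SD, n = 6) (-0.72 ± 0.15, adjusted p = 0.0028). The helicase subunits Mcm4, Mcm5 and Mcm6 differed by -0.60, -0.64 and -0.61 and Cdc6 by -0.69, all past the test, and were named after their values were seen. The largest step was that between 24 h and 36 h (median -0.28, 17 members fell), and without 48 h 21 members fell.

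Of the 34 mitosis genes 3 fell (8.82%) and 0 rose, both below the background of 20.8% and 20.2%, with a median of -0.09. Mki67, the proliferation marker Ki-67, had scores of 3819 and 2023 at 12 h, 2555, 3159 and 3229 at 24 h and between 1377 and 2125 in late culture (median 2020) (-0.64 ± 0.16, adjusted p = 0.0079). Its call was lost without 24 h (adjusted p = 0.069) and without 48 h (0.079). The separase Espl1 (-0.40 ± 0.12, adjusted p = 0.021) and Incenp (-0.31 ± 0.11, adjusted p = 0.041) lost theirs without 24 h, without 36 h and without 48 h (Espl1 0.34, 0.087 and 0.12, Incenp 0.66, 0.065 and 0.27). Espl1 lost its call also without 24 h replicate 3 (0.051), and Incenp without each of the 24 h libraries, 36 h replicate 3 or each of the 48 h libraries (0.060 to 0.098). The replicate number as a block (0.051), TMM factors (0.054) and a fit without a trend (0.0502) also ended the call of Incenp. Between 12 h and 24 h 18 mitosis genes rose, with a median of 0.58. With 12 h left out 8 fell, with 36 h left out 1 and with 48 h left out 0, without 12 h replicate 1 6 and without 24 h replicate 3 1, and with 24 h left out 17 were higher in late culture, as were 5 without 24 h replicate 2, so the pooled value of this list joined a rise within early culture to a lower level after it.

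Genes of bone and dentin differentiation fell. Of 26 listed genes 20 were tested, 15 fell and 1 rose (background 20.8% and 20.2%), with a median of -1.13, and 12 fell over 2-fold (background 2.68%). Sp7, the osteoblast factor osterix (chr15:102356606-102366513), had scores of 1053 and 894 at 12 h, 332, 392 and 805 at 24 h and between 164 and 293 in late culture (median 172) (-1.75 ± 0.29, adjusted p = 0.00093). Late libraries were all below the lowest 24 h library. Alpl, the alkaline phosphatase of mineralizing cells (chr4:137741733-137796384), had scores of 442 and 401 at 12 h, 302, 169 and 176 at 24 h and between 27 and 163 in late culture (median 77) (-1.94 ± 0.42, adjusted p = 0.0038), against 1988 to 2288 in freshly isolated mDMCs. Dmp1, the acidic matrix protein of dentin and bone, fell from 129 ± 101 (SD, n = 5) to 20.8 ± 9.87 (SD, n = 6) (-2.26 ± 0.54, adjusted p = 0.0063), and Ibsp, bone sialoprotein, from 584 ± 276 (SD, n = 5) to 216 ± 142 (SD, n = 6) (-1.52 ± 0.40, adjusted p = 0.010). Bmp2, listed here and as a BMP ligand, had scores of 720 and 514 at 12 h, 582, 565 and 573 at 24 h and between 171 and 340 in late culture (median 243) (-1.28 ± 0.15, adjusted p = 0.00016). Freshly isolated mDMCs had 17 to 24 of Dmp1 and 214 to 330 of Bmp2, below early culture and overlapping the late range. They had 541 to 901 of Sp7 and 657 to 2114 of Ibsp, above late culture. The member that rose was Sparc (0.47), a collagen-binding matrix protein, named after its value was seen, and it did not pass without 12 h, without 36 h or without any of 7 of the libraries. Without 12 h, 24 h, 36 h or 48 h, 10, 16, 7 and 9 members fell. Without 24 h Sp7 differed by -2.37, Alpl by -2.55, Dmp1 by -3.56 and Ibsp by -2.17. Without 12 h Dmp1 differed by -1.39 and Ibsp by -1.09 (adjusted p = 0.084), and without 36 h Alpl by -2.63, Ibsp by -1.29 (0.10), with an adjusted p of 0.068 for Dmp1. Without 48 h Alpl differed by -1.25, and with array weights by -1.32.

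Regulators of dental mesenchyme fell in part, and Msx1 did not pass the test. Of 32 listed genes 29 were tested, 14 fell (48.3%, background 20.8%) and 0 rose, with a median of -0.39. The libraries of 4 did not overlap, near the 12.1% of all transcripts. Msx1, the homeobox gene whose loss stops tooth development at the bud stage (chr5:37820485-37824583), had scores of 4338 and 4373 at 12 h, 3355, 3165 and 3545 at 24 h and between 3238 and 3770 in late culture (median 3619) (-0.08 ± 0.09, adjusted p = 0.53). The late libraries lay within the early range, and the 12 h libraries were the highest. Bmp4, its target and partner (-0.09 ± 0.11, adjusted p = 0.53), Wnt5a (-0.23 ± 0.09, adjusted p = 0.063) and Fgf10 (0.19 ± 0.08, adjusted p = 0.084) did not pass either. With 24 h left out Msx1 passed at -0.30 (adjusted p = 0.018) and Fgf10 at 0.31 (0.037). Wnt5a passed without 12 h (0.0497), without 12 h replicate 2 (0.024) or without 36 h replicate 3 (0.043), and Fgf10 without 24 h replicate 2 (0.034).

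Lhx6, a LIM homeobox factor of the jaw mesenchyme (chr2:36081953-36104060), had scores of 1950 and 1868 at 12 h, 1663, 1592 and 1668 at 24 h and between 1268 and 1437 in late culture (median 1302), a small fall without overlap (-0.39 ± 0.07, adjusted p = 0.00096). Twist1, a basic helix-loop-helix factor of the neural crest, fell from 2356 ± 257 (SD, n = 5) to 1841 ± 91.4 (SD, n = 6) (-0.35 ± 0.07, adjusted p = 0.0031). Pax9, the paired box factor needed for the tooth bud (chr12:56691767-56712707), had scores of 2177 and 1525 at 12 h, 903, 1130 and 1301 at 24 h and between 619 and 1056 in late culture (median 754) (-0.75 ± 0.21, adjusted p = 0.014). Dlx1 (-0.95 ± 0.21, adjusted p = 0.0045) and Dlx2 (-0.88 ± 0.21, adjusted p = 0.0056), homeobox genes of the jaw, fell, and Dlx1 had 4923 and 5711 at 12 h, 3858, 4750 and 5769 at 24 h and between 1995 and 4892 in late culture (median 2204). Its highest late library, 48 h replicate 3, reached the early range. The antisense gene Dlx1as fell with it (-1.59 ± 0.36, adjusted p = 0.0047), and since strand-specific counting is not stated, reads of the pair cannot be told apart. Pdgfra, the receptor that marks mesenchyme, fell from 4199 ± 768 (SD, n = 5) to 2886 ± 404 (SD, n = 6) (-0.53 ± 0.13, adjusted p = 0.0060) against 16448 in each freshly isolated library. Sostdc1, a BMP and Wnt antagonist (-1.15 ± 0.31, adjusted p = 0.010), Msx2 (-0.96 ± 0.31, adjusted p = 0.026), Dlx3 (-2.495 ± 0.90, adjusted p = 0.042) and Lef1, the Wnt effector (-0.80 ± 0.27, adjusted p = 0.034), fell as well. Dlx3 was under 21.4 in every late library, at 0 to 6, and was tested only through early culture. Freshly isolated mDMCs overlapped late culture in Msx2 (69 to 163), Dlx1 (3770 to 4750) and Dlx2 (324 to 751). They lay above both periods in Pax9, Lhx6, Twist1, Sostdc1, Dlx3 and Lef1.

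Most of these calls depended on the times pooled. Without 36 h 3 members fell, without 12 h 8, without 48 h 9, and 9 without 24 h replicate 3 or without 36 h replicate 1. Without 36 h the adjusted p was 0.13 for Pax9, 0.070 for Dlx1, 0.072 for Dlx2, 0.072 for Dlx1as, 0.072 for Sostdc1, 0.28 for Msx2, 0.27 for Dlx3 and 0.19 for Lef1. Without 12 h it was 0.084 for Pax9, 0.071 for Sostdc1, 0.16 for Msx2, 0.33 for Dlx3 and 0.17 for Lef1, and without 48 h it was 0.089 for Pdgfra and 0.086 for Lef1. Dlx3, with scores of at most 14 in the libraries of 24 h and later, differed by -1.325 without 12 h, -4.25 without 24 h, -1.52 without 36 h, -3.47 without 48 h and -3.10 without 24 h replicate 1. Its call ended with the replicate number as a block (0.059) and with pseudocounts of 0.1 (-3.65, 0.062) and 16 (-0.96, 0.052). Single libraries also ended the calls of Dlx3 (each of 12 h and 36 h, 24 h replicate 3 and 48 h replicate 1, adjusted p 0.053 to 0.12), Msx2 (each of 12 h and 36 h and 24 h replicate 3, 0.050 to 0.069) and Lef1 (each of 12 h, 36 h replicates 1 and 2, 24 h replicate 3 and 48 h replicate 1, 0.065 to 0.073).

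FGF feedback genes fell in 7 of 19 tested members (36.8%, background 20.8%) with 0 rises, and the members that fell were receptors and the feedback genes that FGF signalling is known to induce. Spry1, an inhibitor of receptor tyrosine kinase signalling (chr3:37639947-37644598), had scores of 1439 and 1306 at 12 h, 1150, 1031 and 878 at 24 h and between 363 and 706 in late culture (median 578) (-1.08 ± 0.18, adjusted p = 0.00080). Fgfrl1, a receptor without a kinase domain, fell from 896 ± 65.3 (SD, n = 5) to 479 ± 64.6 (SD, n = 6) (-0.91 ± 0.10, adjusted p = 0.00012), Etv5, a transcription factor downstream of FGF, from 922 ± 178 (SD, n = 5) to 545 ± 116 (SD, n = 6) (-0.76 ± 0.15, adjusted p = 0.0024), and Fgfr3 differed by -1.17 (± 0.24, adjusted p = 0.0027, and -1.82 without 24 h). Spry2 (-0.71), Spry4 (-0.55) and Dusp6 (-0.37) fell as well and were named after their values were seen. Without any of the times 5 to 8 members fell.

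In the BMP pathway 5 of 24 tested members fell and 1 rose, and the share that fell was that of all transcripts (20.8%). The member that rose, Grem1 (chr2:113746164-113758646), encodes the secreted BMP antagonist gremlin, with scores of 4739 and 5066 at 12 h, 13634, 13266 and 12464 at 24 h and between 19215 and 36335 in late culture (median 25927) (1.59 ± 0.32, adjusted p = 0.0023), against 286 to 465 in freshly isolated mDMCs. Another antagonist went the other way: Nog, which encodes noggin (chr11:89300638-89302332), had scores of 1839 and 1699 at 12 h, 1593, 1475 and 1356 at 24 h and between 684 and 1029 in late culture (median 945) (-0.80 ± 0.11, adjusted p = 0.00034), above its 35 to 138 in fresh cells in both periods. Bambi, a decoy receptor, fell from 1116 ± 158 (SD, n = 5) to 731 ± 96.7 (SD, n = 6) (-0.61 ± 0.11, adjusted p = 0.0015). Without 24 h, 11 members fell and Grem1 differed by 2.44, and with array weights Grem1 differed by 0.96.

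In the Wnt pathway 9 of 26 tested members fell (34.6%, background 20.8%) and 0 rose, with a median of -0.41. Dkk1, a secreted inhibitor of Wnt receptors (chr19:30545863-30549665), had scores of 276 and 271 at 12 h, 119, 58 and 183 at 24 h and between 8 and 57 in late culture (median 42.5) (-2.395 ± 0.55, adjusted p = 0.0050). Wif1, another secreted inhibitor, fell from 122 ± 52.4 (SD, n = 5) to 45 ± 11.1 (SD, n = 6) (-1.35 ± 0.28, adjusted p = 0.0028). The target gene Nkd1 (-1.08 ± 0.33, adjusted p = 0.022) and the ligand Wnt4 (-1.01 ± 0.32, adjusted p = 0.024) also fell. Without 24 h Dkk1 differed by -3.19, Wif1 by -1.99 and Nkd1 by -1.67, without 36 h Dkk1 by -3.18, and without 48 h Dkk1 by -1.61. With array weights Dkk1 differed by -1.37 and Nkd1 by -0.46, and the call of Nkd1 ended (adjusted p = 0.19). Without 48 h 4 members fell and without 12 h replicate 1 5. Nkd1 lost its call without 12 h (0.16), without 48 h (0.24) and without either 12 h library (0.054 and 0.058), and Wnt4 without 12 h (0.097), 24 h (0.083), 36 h (0.23), 12 h replicate 1 (0.053) or 24 h replicate 2 (0.054) and with time means that include 0 h (0.093).

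In the Hedgehog pathway 6 of 11 tested members fell (54.5%, background 20.8%) and 0 rose, with a median of -0.53. Smo, the signal transducer (chr6:29735694-29761365), had scores of 5213 and 5336 at 12 h, 3886, 3803 and 3803 at 24 h and between 2446 and 3286 in late culture (median 3098) (-0.54 ± 0.11, adjusted p = 0.0034). Ptch1, the receptor and target gene, fell from 339 ± 140.2 (SD, n = 5) to 169 ± 19.8 (SD, n = 6) (-0.92 ± 0.22, adjusted p = 0.0060), and its level in freshly isolated mDMCs was 2235 to 3848. The co-receptors Cdon (-0.70 ± 0.19, adjusted p = 0.012) and Gas1 (-0.54 ± 0.16, adjusted p = 0.021) fell too. Without 12 h or without 36 h 3 members fell and without 48 h 1. With array weights the calls of Cdon (0.12) and Gas1 (0.073) ended. Ptch1 lost its call without 48 h (0.070) and differed by -1.53 without 24 h, Cdon lost it without 12 h (0.068) and 48 h (0.145), and Gas1 without 12 h (0.099), 36 h (0.096), 48 h (0.092) or 12 h replicate 2 (0.057).

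Among IGF pathway and imprinted growth genes 6 of 19 fell (31.6%, background 20.8%) and 3 rose (15.8%, background 20.2%). Igfbp3, which binds and holds insulin-like growth factors (chr11:7206086-7213897), had scores of 4092 and 4116 at 12 h, 2188, 2286 and 5388 at 24 h and between 1114 and 2164 in late culture (median 1138) (-1.35 ± 0.26, adjusted p = 0.0017). Dlk1, an imprinted membrane protein that restrains differentiation, fell from 1588 ± 690.1 (SD, n = 5) to 625 ± 121 (SD, n = 6) (-1.28 ± 0.23, adjusted p = 0.0012), and Igfbp4 from 4808 ± 1888 (SD, n = 5) to 1913 ± 264 (SD, n = 6) (-1.25 ± 0.21, adjusted p = 0.00094, -1.85 without 24 h). The imprinted cell cycle inhibitor Cdkn1c (-0.90 ± 0.28, adjusted p = 0.023) lost its call with array weights (0.21) and without 12 h (0.145), 48 h (0.195), 12 h replicate 2 (0.062) or 24 h replicate 1 (0.052). In the TGF-beta pathway 4 of 19 rose and 4 fell, near the background in both directions, with 0 rises and 2 falls without 36 h, 2 and 2 without 12 h, 4 and 2 without 48 h or 24 h replicate 3, and 2 rises without 12 h replicate 2 or 36 h replicate 3. In the Notch pathway 2 of 9 fell (22.2%, near the background of 20.8%) and 1 rose, Notch3, a receptor of perivascular cells (0.77 ± 0.11, adjusted p = 0.00035). Of the semaphorin, ephrin, netrin and slit genes 9 of 33 fell (27.3%, background 20.8%) and 2 rose (6.06%, background 20.2%), and without 12 h, 36 h, 48 h or 12 h replicate 2 4, 5, 3 and 5 fell. Plxna4, a semaphorin co-receptor, differed by -1.33 (± 0.37, adjusted p = 0.014). It differed by -0.68 without 12 h and -2.31 without 24 h, and its call was lost without 36 h (0.082) or 48 h (0.083). The ligand Efna2 fell from 290 ± 114 (SD, n = 5) to 133 ± 24.0 (SD, n = 6) (-1.05 ± 0.23, adjusted p = 0.0037, -1.64 without 24 h).

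**Figure D5:**
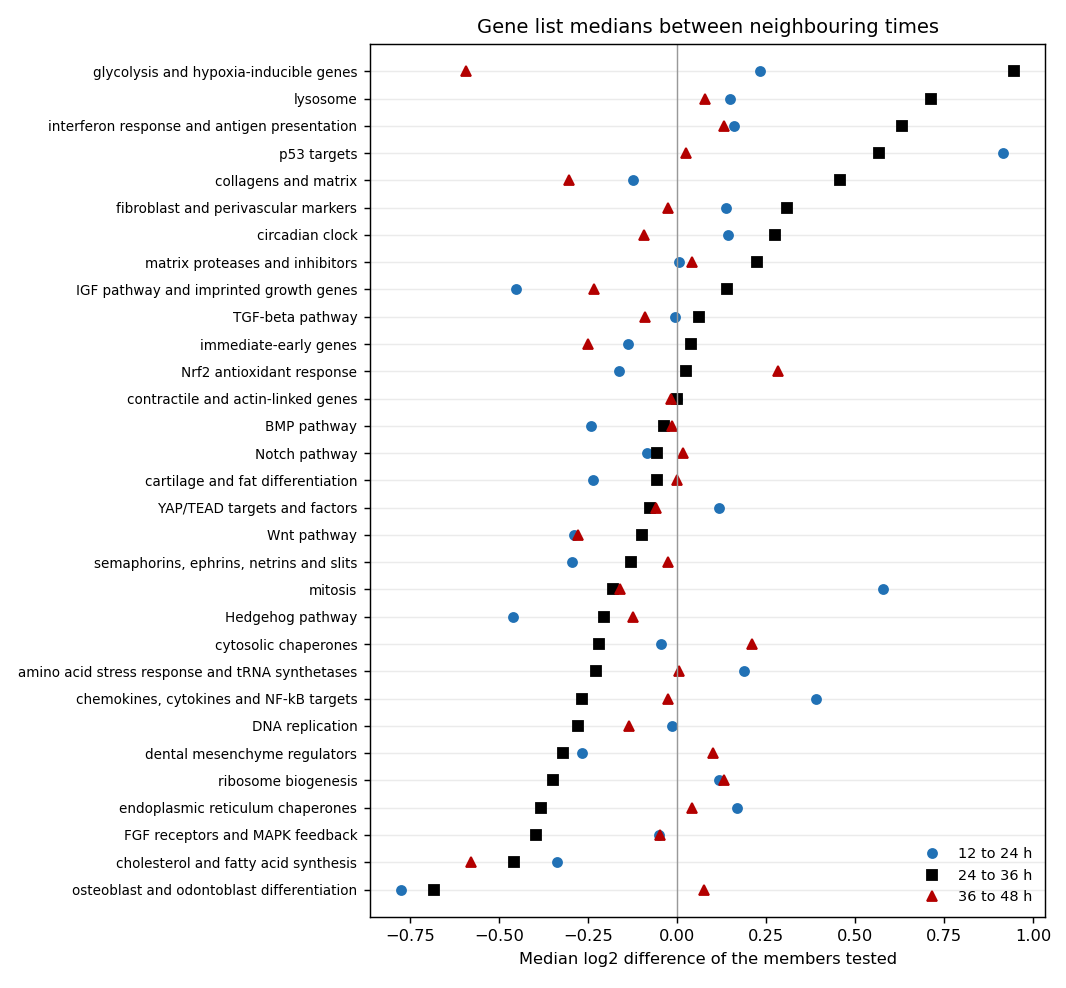
Median log2 difference of the tested members of each gene list between neighbouring times: 12 to 24 h (blue circles), 24 to 36 h (black squares) and 36 to 48 h (red triangles). The glycolysis and hypoxia list has the largest positive 24 to 36 h value (0.95), followed by -0.59, and the p53 list has its largest step between 12 and 24 h (0.92).

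Matrix and matrix-modifying genes were mixed. Of 46 collagen and matrix genes 12 rose (26.1%, background 20.2%) and 5 fell (10.9%, background 20.8%), with a median of 0.23. Plod2, the lysyl hydroxylase that prepares collagen for crosslinking (chr9:92542223-92608428), had scores of 2421 and 2774 at 12 h, 4435, 2810 and 2341 at 24 h and between 4583 and 7240 in late culture (median 6518) (1.09 ± 0.17, adjusted p = 0.00066). P4ha1, a prolyl hydroxylase subunit, rose from 4514 ± 2795 (SD, n = 5) to 13127 ± 6364 (SD, n = 6) (1.54 ± 0.40, adjusted p = 0.0096), but not without 12 h (1.345, adjusted p = 0.067) or 36 h (0.86, 0.13), and by 2.23 without 48 h. The crosslinking oxidase Lox reached 127101, the largest score of every library, at 36 h replicate 3 and 48 h replicate 1, so its difference (1.32 ± 0.41, adjusted p = 0.022) is limited by the top of the scale. Lox lost its call without 12 h (0.082), 24 h (0.056), 36 h (0.17), 12 h replicate 2 (0.052) or 24 h replicate 3 (0.054). Without 12 h 5 members rose and 0 fell, without 36 h 7 and 3, without 48 h 11 and 1, and the falls were 1 to 3 without either 12 h library, 36 h replicate 3 or 48 h replicate 1. Col1a1, the main collagen of bone and dentin, differed by -0.09 and did not pass the test.

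Of 31 proteases and inhibitors 9 rose (29%, background 20.2%) and 2 fell (6.45%, background 20.8%). Mmp9, gelatinase B (chr2:164940780-164948894), had scores of 250 and 173 at 12 h, 161, 271 and 311 at 24 h and between 36 and 72 in late culture (median 52) (-2.11 ± 0.24, adjusted p = 0.00014), against 1623 to 2892 in freshly isolated mDMCs. Serpine2, protease nexin 1, rose from 919.8 ± 143 (SD, n = 5) to 2608 ± 833 (SD, n = 6) (1.44 ± 0.23, adjusted p = 0.00070). Among chemokines and cytokines, of which 17 of 30 listed genes were tested, 4 rose (23.5%, near the background of 20.2%) and 1 fell (5.88%, background 20.8%). Ccl2, a chemokine for monocytes (chr11:82035571-82037453), had scores of 203 and 247 at 12 h, 509, 428 and 269 at 24 h and between 680 and 940 in late culture (median 754) (1.298 ± 0.21, adjusted p = 0.00076). Ccl7, its neighbour on chromosome 11, rose from 14.8 ± 4.03 (SD, n = 5) to 44.2 ± 16.5 (SD, n = 6) (1.495 ± 0.28, adjusted p = 0.0018), and the adhesion receptor Vcam1 fell from 2261 ± 239 (SD, n = 5) to 1463 ± 218 (SD, n = 6) (-0.63 ± 0.10, adjusted p = 0.00080). Ccl7 was under 21.4 in every early library, at 9 to 19, and was tested only through late culture.

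Interferon and antigen presentation genes were tested in 13 of 28 listed cases, and 6 rose (46.2%, background 20.2%) with a median of 0.76. Ddx58, which encodes the RNA sensor RIG-I (chr4:40204849-40239828), had scores of 85 and 84 at 12 h, 164, 157 and 116 at 24 h and between 352 and 939 in late culture (median 380.5) (1.903 ± 0.27, adjusted p = 0.00041). Its highest library, 48 h replicate 1, was far above the other late libraries, which still did not overlap with early culture. Tap1, a peptide transporter of antigen presentation, rose from 208 ± 154 (SD, n = 5) to 896 ± 159 (SD, n = 6) (2.64 ± 0.57, adjusted p = 0.0037), by 1.48 without 12 h, 4.40 without 24 h and 1.96 with array weights. Bst2 (1.52 ± 0.37, adjusted p = 0.0069) lost its call without 12 h (0.057).

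Fibroblast and perivascular markers rose in 6 of 12 tested genes (50%, background 20.2%), with 1 fall (8.33%, background 20.8%). Eng, the TGF-beta co-receptor endoglin (chr2:32646595-32682658), had scores of 1057 and 570 at 12 h, 746, 834 and 743 at 24 h and between 1173 and 1466 in late culture (median 1348) (0.78 ± 0.13, adjusted p = 0.00083). Notch3, given above, rose from 1124 ± 131 (SD, n = 5) to 1922 ± 256 (SD, n = 6), and Thy1, a surface marker of mesenchymal cells, fell from 683 ± 202 (SD, n = 5) to 332 ± 98.9 (SD, n = 6) (-1.05 ± 0.23, adjusted p = 0.0037). Without 48 h 3 members rose. Of 14 tested cartilage and fat genes 3 rose and 3 fell (21.4% each), near the background in both directions. Matn4, a cartilage matrix protein (-2.38 ± 0.29, adjusted p = 0.00018), fell without overlap from 982 ± 394 (SD, n = 5) to 182 ± 64.8 (SD, n = 6), while the lipid droplet protein Plin2 rose from 891 ± 135 (SD, n = 5) to 1892 ± 585 (SD, n = 6) (1.05 ± 0.17, adjusted p = 0.00071). Without 12 h or 36 h 1 gene of this list fell.

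Of 42 tested ribosome biogenesis genes 23 fell (54.8%, background 20.8%), 1 rose and 18 did not pass, with a median of -0.23. Dkc1, the pseudouridine synthase dyskerin (chrX:75095854-75109777), had scores of 1919 and 2106 at 12 h, 1704, 2194 and 2617 at 24 h and between 1235 and 1644 in late culture (median 1380) (-0.59 ± 0.11, adjusted p = 0.0015). Ebna1bp2 fell from 3704 ± 264 (SD, n = 5) to 2587 ± 272 (SD, n = 6) (-0.52 ± 0.08, adjusted p = 0.00054) and the helicase Ddx18 from 1860 ± 191 (SD, n = 5) to 1306 ± 145 (SD, n = 6) (-0.51 ± 0.09, adjusted p = 0.0012). Myc, a driver of ribosome production and growth listed with the immediate-early genes (chr15:61985391-61990350), had scores of 1507 and 929 at 12 h, 735, 696 and 941 at 24 h and between 367 and 545 in late culture (median 447) (-1.05 ± 0.19, adjusted p = 0.0012). The list had 13 falls without 24 h and 9 without 36 h. Between 24 h and 36 h 21 members fell.

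Of 38 amino acid stress and tRNA synthetase genes 9 rose (23.7%) and 11 fell (28.9%), against 20.2% and 20.8% of all transcripts. Ddit3, the stress factor CHOP (chr10:127290774-127296288), had scores of 286 and 445 at 12 h, 544, 517 and 545 at 24 h and between 1056 and 3118 in late culture (median 1578) (1.86 ± 0.25, adjusted p = 0.00031). Ddit4, an inhibitor of mTORC1, rose from 520.4 ± 342 (SD, n = 5) to 1804 ± 457 (SD, n = 6) (2.03 ± 0.40, adjusted p = 0.0023), by 1.32 without 12 h and 3.10 without 24 h, and Atf4, the factor above the response, rose by 0.52. The enzymes of amino acid synthesis and the synthetases that passed the test fell, with Pycr1 at -1.14, Mthfd2 at -0.84, Psat1 at -0.61, Asns at -0.52 and Mars at -0.45, and Sars, which rose by 0.32, as the exception. These members, other than Ddit3 and Ddit4, were named after their values were seen. In chaperones of the endoplasmic reticulum 7 of 19 fell (36.8%, background 20.8%) and 0 rose, and without 36 h 1 fell. Among them Dnajc3 went from 3577 ± 500.1 (SD, n = 5) to 2459 ± 299 (SD, n = 6) (-0.54 ± 0.11, adjusted p = 0.0029). Without 12 h replicate 2 or 24 h replicate 1 4 fell. In cytosolic chaperones 7 of 24 fell (29.2%, background 20.8%) and 1 rose, Cryab, a small heat shock protein (1.81 ± 0.32, adjusted p = 0.0013, 2.60 without 24 h). Without 12 h or 24 h 3 fell, without 36 h 0, and 2 to 4 without 12 h replicate 2, 24 h replicate 2 or 3 or any 36 h library. Of the 22 antioxidant genes driven by Nrf2 5 rose (22.7%, background 20.2%) and 3 fell (13.6%, background 20.8%). Without 12 h or 24 h 3 of them rose and without 48 h 1, with 3 rises also without 12 h replicate 2, 24 h replicate 2 or 3 or 48 h replicate 1, and 5 falls without 48 h or 48 h replicate 3.

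Of 16 clock genes 6 rose (37.5%, background 20.2%) and 1 fell (6.25%, background 20.8%), and Bhlhe41, a repressor of the clock (chr6:145858243-145865558), had scores of 47 and 33 at 12 h, 77, 75 and 56 at 24 h and between 114 and 166 in late culture (median 138) (1.296 ± 0.21, adjusted p = 0.00080). Of 23 immediate-early genes 2 rose and 5 fell, against 20.2% and 20.8% of all transcripts, so the falls were near the background and the rises below it. Besides Myc, the serum-induced factor Egr2 fell without overlap, from 875 ± 117 (SD, n = 5) to 453 ± 131 (SD, n = 6) (-0.99 ± 0.18, adjusted p = 0.0014). Srf, the serum response factor, fell without overlap, from 4027 ± 445 (SD, n = 5) to 2694 ± 394 (SD, n = 6) (-0.59 ± 0.11, adjusted p = 0.0014). The antiproliferative Btg2, a p53 target too, rose from 1933 ± 650.3 (SD, n = 5) to 4278 ± 697 (SD, n = 6) (1.197 ± 0.20, adjusted p = 0.00088). Of 18 YAP/TEAD genes 6 fell (33.3%, background 20.8%) and 2 rose (11.1%, background 20.2%). Tead2, a TEAD factor, fell from 2661 ± 519 (SD, n = 5) to 1682 ± 224 (SD, n = 6) (-0.65 ± 0.13, adjusted p = 0.0021) and Fjx1 from 501 ± 44.6 (SD, n = 5) to 315 ± 25.7 (SD, n = 6) (-0.67 ± 0.08, adjusted p = 0.00024), while Ptpn14, an inhibitor of YAP, rose from 3686 ± 723 (SD, n = 5) to 6162 ± 625 (SD, n = 6) (0.76 ± 0.14, adjusted p = 0.0012). The targets Ccn1 (-0.38) and Ccn2 (-0.13) did not pass the test and were named after their values were seen. Of 20 contractile and actin-linked genes 3 fell and 1 rose, both below the background. Smtn fell from 1665 ± 375 (SD, n = 5) to 1073 ± 83.6 (SD, n = 6) (-0.61 ± 0.12, adjusted p = 0.0021) and Cnn2 from 19733 ± 1967 (SD, n = 5) to 14504 ± 786 (SD, n = 6) (-0.44 ± 0.07, adjusted p = 0.00090).

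The largest rise of a gene without overlap and with a mean score of at least 100 was that of Scx, the tendon and ligament factor scleraxis (chr15:76457520-76459449). Its scores were 13 and 20 at 12 h, 424, 296 and 59 at 24 h and between 571 and 2103 in late culture (median 1332) (4.14 ± 0.81, adjusted p = 0.0022), and fresh cells had 120 to 195, so that 12 h lay below and 36 h above the starting level. The next largest were Klhdc7a (4.04 ± 0.64, adjusted p = 0.00068), the metallothionein Mt1 (3.72 ± 0.40, adjusted p = 0.00013), the synaptotagmin Syt13 (3.55 ± 0.79, adjusted p = 0.0042), the costimulatory ligand Cd80 (3.52 ± 0.79, adjusted p = 0.0045), the potassium channel Kcnj4 (3.45 ± 0.39, adjusted p = 0.00014) and Ephx1, a detoxifying epoxide hydrolase (3.43 ± 0.52, adjusted p = 0.00054). Ephx1 (chr1:180976210-180996170) had scores of 67 and 73 at 12 h, 528, 525 and 334 at 24 h and between 2125 and 2463 in late culture (median 2354). The list went on with the olfactory receptor Olfr78 (3.33 ± 0.81, adjusted p = 0.0070), the oxidase subunit Cox6b2 (3.13 ± 0.51, adjusted p = 0.00083), Pmaip1, given above, the hyaluronidase Hyal1 (2.81 ± 0.33, adjusted p = 0.00016) and the ubiquitin ligase Trim7 (2.796 ± 0.49, adjusted p = 0.0012). Hyal1, a lysosomal enzyme that was not on the lysosome list (chr9:107576927-107581710), had scores of 13 and 34 at 12 h, 46, 30 and 51 at 24 h and between 158 and 356 in late culture (median 238).

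The size of these rises depended on the times pooled and on the processing. Without 12 h the differences were 2.74 for Scx, 2.81 for Klhdc7a, 3.12 for Mt1, 1.98 for Syt13, 2.03 for Cd80, 2.82 for Kcnj4, 2.36 for Ephx1, 2.34 for Cox6b2 and 1.804 for Trim7, and without 24 h they were 6.25, 5.895, 4.62, 5.90, 5.76, 4.40, 5.04, 4.32 and 4.28. Scx differed by 3.54 without 12 h replicate 1 and 4.77 without 24 h replicate 1, and Olfr78 by 2.45 without 24 h replicate 3. Syt13 differed by 2.96 without either 12 h library and Cd80 by 2.71 without 12 h replicate 1. Syt13 and Cd80 lost their calls without 48 h (0.058 and 0.056), and Olfr78 without 36 h (0.063) and without 48 h (0.053). With a pseudocount of 16 in place of 1 the differences were 2.98 for Klhdc7a, 2.85 for Mt1, 2.38 for Syt13, 2.07 for Cd80, 2.45 for Kcnj4, 1.998 for Olfr78 and 2.26 for Cox6b2, and with 0.1 they were 4.28 for Cd80 and 4.05 for Olfr78. With array weights, which let limma weight libraries by their spread, Syt13 differed by 2.28, Cd80 by 2.44 and Ephx1 by 2.78. Hyal1 moved by less than 1.5-fold in each of these cases.

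The largest falls, among genes without overlap and with a mean score of at least 100, were those of Wdr86 (-3.08 ± 0.53, adjusted p = 0.0010), 6330403K07Rik (-2.82 ± 0.43, adjusted p = 0.00057), Acp5, the acid phosphatase known from osteoclasts (-2.74 ± 0.44, adjusted p = 0.00079), the activity-regulated gene Arc (-2.52 ± 0.41, adjusted p = 0.00081) and Fstl4, a follistatin-like secreted protein (-2.46 ± 0.50, adjusted p = 0.0027). Wdr86 (chr5:24711738-24730727) had scores of 251 and 287 at 12 h, 62, 48 and 122 at 24 h and between 6 and 26 in late culture (median 15.5), against 1846 to 2137 in fresh cells, so that both periods lay below the fresh level. Fstl4 (chr11:52764634-53188538) had 179 and 113 at 12 h, 79, 162 and 337 at 24 h and between 9 and 78 in late culture (median 29.5), against 2 to 11 in fresh cells, so that the early level was above that of fresh cells. After Dkk1, given above, came Tril (-2.38 ± 0.32, adjusted p = 0.00031), Matn4, Efnb3, an ephrin ligand (-2.35 ± 0.40, adjusted p = 0.0010), the neurofilament gene Nefl (-2.31 ± 0.38, adjusted p = 0.00089), the mechanically gated channel Piezo2 (-2.23 ± 0.29, adjusted p = 0.00025) and Grp, gastrin-releasing peptide (-2.15 ± 0.32, adjusted p = 0.00053). Efnb3 was under 21.4 in every late library, at 12 to 19, and was tested only through early culture. Piezo2 (chr18:63010213-63387183) had scores of 1470 and 1151 at 12 h, 400, 534 and 907 at 24 h and between 131 and 189 in late culture (median 179). Without 12 h Wdr86 differed by -2.32, 6330403K07Rik by -2.001 and Efnb3 by -1.65, and without 24 h Wdr86 by -4.21, 6330403K07Rik by -4.04, Arc by -3.28, Tril by -3.17, Efnb3 by -3.39, Nefl by -3.07 and Piezo2 by -2.93. With a pseudocount of 16 Wdr86 differed by -2.21 and Efnb3 by -1.69, and with array weights Wdr86 by -2.02 and 6330403K07Rik by -2.22. Acp5 differed by -3.40 without 36 h and -2.08 without 48 h.

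Genes called step-like passed the test and had a 24 h to 36 h difference over 1 on the log2 scale and over 2 times each of the other steps, with the same sign as the pooled difference. Of these, 119 rose (0.994% of all) and 0.844% of all transcripts fell. Ranked by the 24 h to 36 h step, the first rises were Fam180a (2.56 ± 0.41, adjusted p = 0.00072), the muscle-associated Mustn1 (2.33 ± 0.55, adjusted p = 0.0057), the proton pump subunit Atp6v0e2 (2.72 ± 0.38, adjusted p = 0.00038), Olfr78 and Hyal1. Fam180a (chr6:35312668-35326141) had scores of 35 and 18 at 12 h, 41, 10 and 17 at 24 h and between 58 and 195 in late culture (median 170), against 1 or 2 in fresh cells. The values given here are the pooled differences. By the same ranking the first falls were Dsg1b (-3.25 ± 1.12, adjusted p = 0.035), the epithelial factor Ovol1 (-2.505 ± 0.67, adjusted p = 0.011), Dlx1as, Fstl4 and Grp. Grp (chr18:65872820-65886596) had 189 and 191 at 12 h, 96, 113 and 165 at 24 h and between 23 and 79 in late culture (median 27), with 48 h replicate 3 as the highest late library. Without 24 h replicate 1 there were 193 step-like rises and 153 falls, and without 24 h replicate 3 87 and 64. Mustn1 lost its call without 36 h (0.083) and differed by 2.92 without 48 h, Atp6v0e2 differed by 3.32 without 24 h, and Ovol1 lost its call without 12 h (0.057) and 36 h (0.089). Dsg1b lost its call without 12 h (0.17), 24 h (0.076), 36 h (0.11), either 12 h library, 24 h replicate 3, 36 h replicate 3 or 48 h replicate 1 (0.060 to 0.078), with differences of -4.01 without 24 h and -2.56 without either of the last 2 libraries. Its call also ended with array weights (-2.10, 0.099) and a pseudocount of 0.1 (-4.37, 0.064). With a pseudocount of 16 the differences were 1.95 for Fam180a, 1.67 for Mustn1, 2.11 for Atp6v0e2, -1.77 for Dsg1b and -1.74 for Ovol1, and with array weights 3.20 for Fam180a and -3.14 for Ovol1.

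Markers of some other cell types differed between the periods. Over all transcripts tested, 20.2% rose and 20.8% fell. The cells carried the markers of dental mesenchyme in all 11 libraries: 8 of 8 were tested, 3 fell (Pax9, Pdgfra and Twist1), 0 rose, and the summed score was between 74810 and 103543 in early and between 61376 and 74564 in late culture. Red cell markers fell in 5 of 5 tested genes, and their summed score was between 295 and 744 in early and between 45 and 254 in late culture, after 97059 to 149585 in fresh cells. Hbb-bs, an adult beta globin, had scores of 156 and 162 at 12 h, 141, 170 and 300 at 24 h and between 14 and 122 in late culture (median 61.5) (-1.81 ± 0.51, adjusted p = 0.014), and the near-identical globin copies may share reads. Of 7 tested endothelial markers 3 fell and 1 rose, with summed scores between 2041 and 3686 in early and between 2022 and 4010 in late culture. Pecam1 (CD31) had 129 and 97 at 12 h, 25, 19 and 36 at 24 h and between 7 and 18 in late culture (median 12) (-1.95 ± 0.49, adjusted p = 0.0078), and Cdh5 was at 0 to 5 in late culture (-2.704 ± 0.74, adjusted p = 0.012), while Kdr rose (0.71 ± 0.17, adjusted p = 0.0064). Pecam1 and Cdh5 were under 21.4 in every late library and were tested only through early culture. Of 8 dental epithelium markers 4 fell, with summed scores between 1022 and 2732 in early and between 91 and 1229 in late culture, and Epcam had 104 and 161 at 12 h, 30, 47 and 38 at 24 h and between 12 and 36 in late culture (median 22) (-1.56 ± 0.45, adjusted p = 0.016). Of 4 Schwann and neural markers 3 fell, with summed scores between 1013 and 1949 in early and between 407 and 1209 in late culture. Ngfr, the low-affinity neurotrophin receptor that also marks dental mesenchyme and neural crest (chr11:95568818-95587735), had 72 and 115 at 12 h, 61, 49 and 64 at 24 h and between 13 and 21 in late culture (median 20.5) (-1.83 ± 0.24, adjusted p = 0.00029), against 1828 to 2032 in fresh cells. Its late scores were all under 21.4, so Ngfr was tested only through early culture. Of 7 macrophage markers Cd14 rose (1.51 ± 0.27, adjusted p = 0.0014) and Csf1r fell (-1.18 ± 0.26, adjusted p = 0.0040, -1.80 without 24 h), with summed scores between 710 and 1398 in early and between 640 and 1064 in late culture, and of 4 skeletal muscle markers 0 passed the limma test and 1 had an unadjusted p below 0.05, Mylpf (1.201 ± 0.53, adjusted p = 0.087). In these bulk samples, fewer cells of a type and less RNA per cell cannot be told apart, and the part of such cells in the results above was not tested.

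Several of these marker calls rested on particular times or libraries. Of the red cell markers 2 fell without 12 h, 0 without 24 h, 1 without 48 h and 3 without 24 h replicate 3, and Hbb-bs had adjusted p = 0.10 without 24 h, 0.054 without 48 h and 0.095 with array weights (-1.07), with -2.53 without 36 h. Without 12 h 1 endothelial and 1 epithelial marker fell, and without 48 h 1 endothelial marker. Cdh5 had 0.13 without 12 h and 0.070 without 36 h, with -4.35 without 24 h, -1.07 with a pseudocount of 16 and -3.51 with one of 0.1, Pecam1 0.057 without 48 h, with -1.12 without 12 h, -3.19 without 24 h, -1.32 with array weights and -1.25 with a pseudocount of 16, and Epcam 0.11 without 12 h and 0.11 without 36 h, with -2.61 without 24 h. Without 36 h 2 epithelial markers fell, as they did without either 12 h library, 24 h replicate 2 or 3, or 48 h replicate 1. Mylpf passed without 36 h replicate 3 (1.59, 0.012). Ngfr passed the test in each of these cases.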

How the data were processed

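RNA of cultured mDMCs was sequenced after RNeasy extraction and TruSeq library preparation. The deposited values are whole-number scores that the authors aligned and quantified with bowtie and RSEM (version 1.1.21 per the labels, while the study's methods name another version) on the mouse transcriptome of mm10. Every library has the same median and largest score, so the values were brought to a common distribution before deposition, and the step that did so is not given in the sources used here. Of 12089 transcripts 11973 matched 11960 genes, 13 of them with 2 transcripts, and 116 were unmatched. Each library held 14 to 31 transcripts at 0 in culture, and strand-specific counting is not stated.

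Scores were used as log2(score + 1). A transcript was kept if its score reached 21.4, which is 1 ppm of a library, in 2 or more of the 11 libraries (11972 kept), and pooled late was compared with pooled early culture by limma 3.58.1 with an intensity trend in R 4.3.3, two-sided, with Benjamini-Hochberg adjustment and a threshold of 0.05. This test was used because the values are not read counts. The fit was tested on simulated data. Tables and figures were made with Python 3.11.15, pandas 2.3.3, numpy 2.4.6 and matplotlib 3.10.9. TMM factors for an alternative were computed from their definition.

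Named genes were the 12 largest rises and 12 largest falls without overlap and with a mean score of at least 100 in the higher period, up to 4 called members of each list by size (or the member with the lowest p), the 5 largest step-like rises and falls, and 11 genes that the study follows. Some of the genes that the rule names are not reported here. The comparison, its members and the lists were chosen with earlier results of these data known. Alternatives were pseudocounts of 0.1 and 16, no filter, a score of at least 100 in 5 libraries, a mean per time point, a replicate block, TMM factors, no trend, array weights, unadjusted p, and leaving out each time or library. The promoter motifs TCACGTGA, TTTGGCGC and TTTCCCGC and the counts of list members between neighbouring times were added after the data were seen.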

Additional observations from a re-analysis of the deposited data

Results flagged for a closer look

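In each pooled period, a library whose gap to the nearest other library was large for the range of the period (Dixon's criterion at 95%) was looked for in the named genes. It was found in 45 of 350 groups of libraries, where chance gives about 1 in 20 for like libraries. Each period pools 2 times and the genes were chosen for their changes, so that rate is not exact here. None of these values was left out, and their causes were not tested.

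In late culture 48 h replicate 3 stood above the other libraries in the score of Mt1 (492), Grp (79), Sostdc1 (527), Sp7 (293), Trib3 (233), Hmox1 (6934), Sqstm1 (11655), Hspd1 (17316), Ovol1 (58), Dlx1as (1125) and Dlx1 (4892). In late culture 48 h replicate 1 stood above the other libraries in the score of Cd80 (190), Klf15 (107), Plin2 (3079), Ddx58 (939), Bst2 (301) and Ddit3 (3118). In late culture 48 h replicate 1 stood below the other libraries in the score of Ccne1 (418), Vcl (20919) and Nog (684). In early culture 12 h replicate 1 stood above the other libraries in the score of Sox9 (359), Tead1 (11557), Smtn (2311), Hsp90ab1 (40684), Ltbp4 (1003) and Sema6a (1373). In early culture 12 h replicate 1 stood below the other libraries in the score of Hspd1 (13266). In early culture 24 h replicate 1 stood above the other libraries in the score of Klf15 (35), P4ha1 (9415), Plod2 (4435), Nupr1 (143), Slc16a3 (1743), Bnip3 (2027) and Pdk1 (742). In early culture 12 h replicate 2 stood above the other libraries in the score of Cnn2 (23192) and Idi1 (9215). In early culture 12 h replicate 2 stood below the other libraries in the score of Ptpn14 (2397). In early culture 24 h replicate 2 stood above the other libraries in the score of Cald1 (40603). In late culture 36 h replicate 3 stood above the other libraries in the score of Ccl2 (940). In late culture 36 h replicate 3 stood below the other libraries in the score of Mmp15 (43) and Gas1 (894). In late culture 48 h replicate 2 stood above the other libraries in the score of Ccl7 (77). In late culture 48 h replicate 2 stood below the other libraries in the score of Lif (461). In early culture 24 h replicate 3 stood above the other libraries in the score of Hbb-bs (300). In early culture 24 h replicate 3 stood below the other libraries in the score of Xbp1 (2073).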

How the results depend on the processing

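The counts of called and of non-overlapping genes moved most with the times pooled. Step-like counts were not computed with a time left out. Without 48 h, 1598 genes rose and 1602 fell, and without 36 h 1539 fell. Over 2-fold, 244 rose and 163 fell without 12 h, 721 rose and 660 fell without 24 h, and 180 fell with a score of at least 100 in at least 5 libraries. Non-overlap was 3006 higher and 3086 lower without 24 h, and 2270 lower without 48 h. With the stricter filter 74 step-like rises and 61 falls were left. Without each library in turn, 2098 to 2407 genes rose and 1992 to 2489 fell, 355 to 480 rose and 248 to 378 fell over 2-fold, 1569 to 1787 and 1483 to 1761 did not overlap, and 87 to 193 and 64 to 153 were step-like. Fewer libraries or transcripts entered these settings, and other causes were not tested. Of 177 named genes 172 were called, 91 of them in every alternative run and 142 without each library, and 0 reversed. Most were named because they were called, so the count of 172 was largely set by that choice. With a score of at least 100 in at least 5 libraries only 142 named genes were tested, so the others could not lose a call there.

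With the replicate number as a block 2302 genes rose and 2366 fell. The labels do not say what a shared number marks. Deviations of libraries with the same number correlated at -0.059 to 0.346 (median 0.097) over 15 pairs and with different numbers at -0.363 to 0.060 (median -0.038) over 30 pairs. Not every pair with the same number was above 0.1, so the numbers were not taken as pairs, although 10 of 11 libraries correlated best with their own number, a hint of pairing from the data. TMM factors gave 2713 rises and 2219 falls, array weights 2733 and 3051, and 1 mean per time point over the 11 libraries 2936 and 3112. Read depth is unknown, so the spread between libraries is the only measure of precision. Of the named genes, array weights ended 19 calls, among them those of Nkd1 (adjusted p = 0.19), Cdon (0.12), Gas1 (0.073), Cdkn1c (0.21), Hbb-bs (0.095), Dsg1b (0.099), Trib3 (0.14), Hmox1 (0.097) and Sema6a (0.099). The block ended 12, among them Dlx3 (0.059), Sox9 (0.056), Incenp (0.051), Trib3 (0.071), Sqstm1 (0.053) and Hsp90ab1 (0.070). The pseudocount of 0.1 ended 5, among them Dlx3 (0.062) and Dsg1b (0.064), and that of 16 ended 1, Dlx3 (0.052). TMM factors ended 3, among them Incenp (0.054) and Hsp90ab1 (0.066), and a fit without a trend 3, among them Incenp (0.0502) and Trib3 (0.053). Time means with 0 h ended 5, among them Wnt4 (0.093) and Hspd1 (0.051). Wnt5a passed with array weights (0.0056), Mylpf with array weights (0.031) or the block (0.014), and Fgf10 with time means (0.045 and 0.0397).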
